A study of Homo sapiens with 2 samples.

Results

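The genes described here are the RING finger genes whose symbol is RNF followed by digits and an optional letter, read in a human bladder line after 6 h with the CDK7 inhibitor THZ1 or with its solvent. The symbols of the 58884 counted Ensembl genes were searched, and 84 protein-coding genes met this rule. Of these, 60 reached 30 counts in one library or both and were compared, while 24 fell below that minimum. The rule itself used names and no measured value, but the family was picked for description with its ratios in these libraries known, so what follows is descriptive. The cells were T24/R, labelled as adherent epithelial cells from urinary bladder, grown in the same medium in both groups. One group received DMSO and the other 1600 nM THZ1, both for 6 h. THZ1 binds CDK7 covalently, the kinase within TFIIH that phosphorylates RNA polymerase II, with CDK12 and CDK13 as further targets. Each group was 1 library of a single line, so the spread between cultures is unknown and p-values are not given.

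A RING finger is a small zinc-binding fold that holds a ubiquitin-loaded E2 enzyme next to a substrate, and most proteins with this fold act as E3 ubiquitin ligases. The RNF symbol collects such genes without regard to descent, so the family spans histone modification, repair of DNA breaks, receptor turnover, quality control in the endoplasmic reticulum (ER) and innate immunity. A subgroup, the RING-between-RING ligases, first takes the ubiquitin onto a cysteine of its own.

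After THZ1, a group of RNF genes was lower than in DMSO, while most of the tested members were within 2-fold of it. Of the 60 tested members, 20 were lower by at least 2-fold, 4 were higher and 36 were neither. A call needed a normalized ratio of at least 2-fold and a 95% counting interval that left out a ratio of 1. Among all 12457 tested genes 21.3% were called lower and 9.70% higher, and among tested protein-coding genes 22.0% and 7.61%. The RNF shares were 33.3% and 6.67%. The median log2 ratio of THZ1 over DMSO was −0.62 for the RNF genes, with quartiles at −1.40 and 0.30, beside −0.06 for all tested protein-coding genes. Counts and medians describe these libraries, and nothing particular to the family is read from them.

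**Figure D1:**
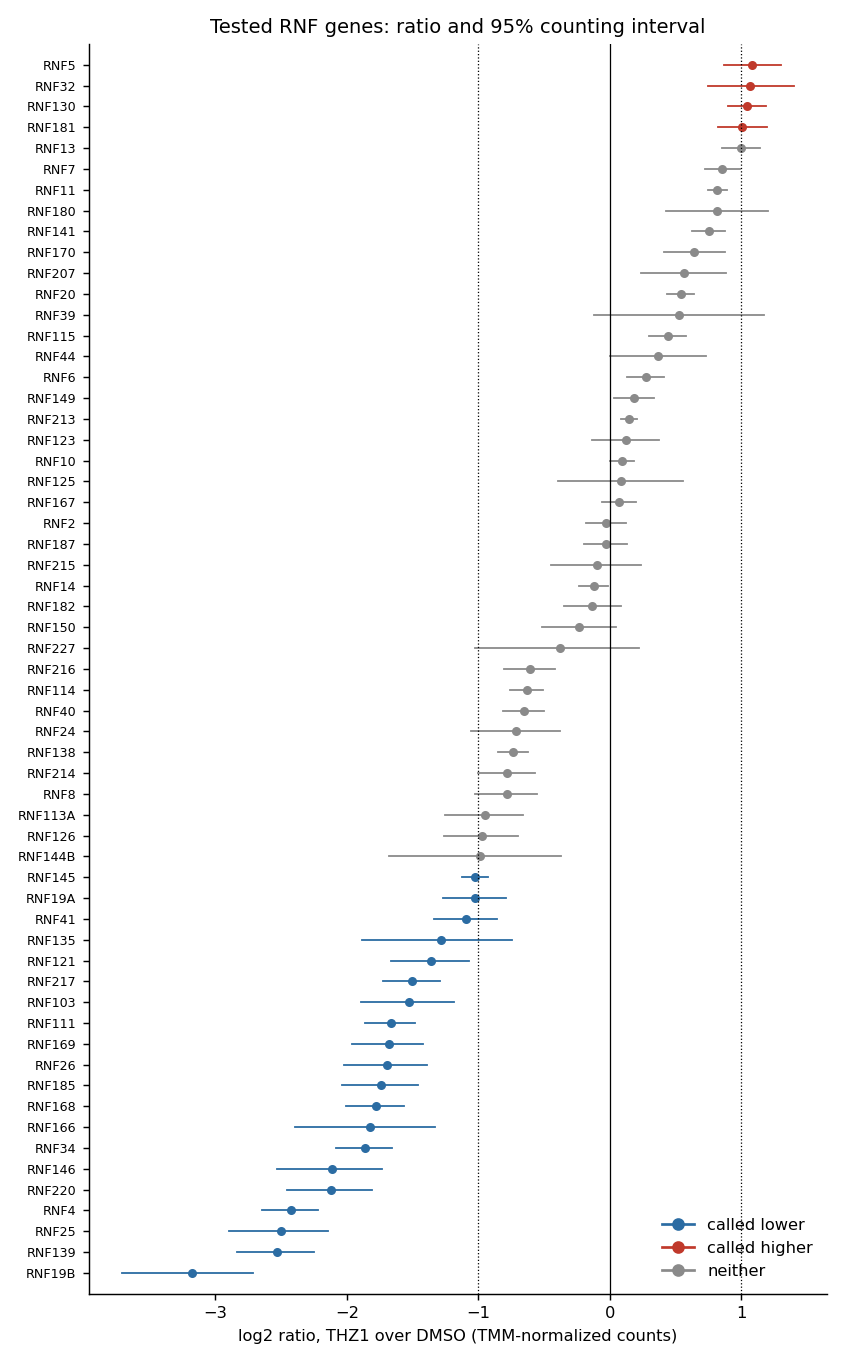
Log2 ratio of THZ1 over DMSO (x axis, TMM-normalized counts) for 59 of the 60 tested RNF genes (y axis, sorted), with bars for the 95% counting interval and dotted lines at 2-fold. Blue marks the 20 genes called lower, from RNF19B at −3.18 to RNF145 at −1.03, and red the 4 called higher, which end at RNF5 with 1.08.

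The DMSO library held 18445831 counts and the THZ1 library 18313827. Scaling by TMM, which sets the bulk of genes level, gave effective sizes of 22049153 and 15320940, so equal raw counts stand for a log2 ratio of 0.53, as for RNF39 with 43 counts in each. Scaling to total counts lowers each log2 ratio by 0.51, and scaling to the mitochondrially encoded mRNAs lowers each by 1.69. On the latter, all 60 tested RNF genes lay below 0. Scaling to library totals called 31 RNF genes lower and 0 higher, beside 34.2% and 2.95% of all tested genes. Scaling to the mitochondrial mRNAs called 51 lower and 0 higher, beside 80.3% and 0.706%. The counts hold no information on RNA per cell. CDK7 itself had 676 counts in DMSO and 180 in THZ1 (log2 ratio −1.38 with TMM). The further targets were also lower, CDK12 with 2599 and 670 counts (−1.43) and CDK13 with 1140 and 391 (−1.02). As for the labelled cell type, the epithelial keratin genes KRT18, KRT8 and KRT7 had 696 and 494, 77 and 100, and 18 and 17 counts. Of the urothelial genes, FOXA1 had 129 and 21, GATA3 25 and 12, UPK1A 10 and 5 and KRT5 3 and 5. The defining genes EPCAM, CDH1, KRT19, PPARG, UPK1B, UPK2, UPK3A and KRT20 had 3 or fewer in both libraries, and the mesenchymal gene VIM had 63269 and 84532. All 4 leukocyte and all 3 endothelial markers had 3 or fewer counts in both. Of the 3 fibroblast markers, LUM had 34 and 69 counts, DCN 9 and 5 and PDGFRB 1 and 0.

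The lowest ratio belonged to RNF19B, a RING-between-RING ligase first described in natural killer cells. It had 500 counts in DMSO and 38 in THZ1, which was 9.03-fold lower (log2 ratio −3.18, interval −3.71 to −2.72). RNF19B (ENSG00000116514) lies on the minus strand of chromosome 1 from 32936445 to 32964685 (GRCh38). The next genes in order are ligases with separate substrates. RNF139, an ER-membrane ligase with a sterol-sensing domain also named TRC8, had 928 and 111 counts (−2.53, −2.84 to −2.25). RNF25, which acts at stalled ribosomes, had 558 and 68 counts (−2.50, −2.90 to −2.15). RNF4, the SUMO-targeted ubiquitin ligase, had 1636 and 211 counts (−2.43, −2.64 to −2.22). On GRCh38, RNF25 spans chromosome 2 from 218663864 to 218672411 and RNF4 chromosome 4 from 2462220 to 2625320. The low values in THZ1 rest on 38 to 211 counts, and each of these intervals lies wholly beyond 4-fold. At 4-fold or more stood 6 RNF genes, the 4 above with RNF220 and RNF146, and at 8-fold or more only RNF19B among the tested members.

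At the other end, 4 genes were called higher, and none of these calls held with total counts or with the mitochondrial reference. RNF5, an ER-membrane ligase of protein quality control, had 298 counts in DMSO and 438 in THZ1, which was 2.11-fold higher (log2 ratio 1.08, 0.87 to 1.30). RNF32 had 133 and 194 counts (1.07, 0.74 to 1.40). Of its exonic bases 13.9% overlap genes on the opposite strand, among them RNF32-AS1 with 9 and 26 counts. RNF130, a membrane ligase with a protease-associated domain, had 668 and 954 counts (1.04, 0.90 to 1.18). RNF181 had 417 and 583 counts (1.01, 0.82 to 1.19). Each interval reaches below 2-fold, and on the mitochondrial reference the ratios turned to −0.61, −0.62, −0.65 and −0.68 in that order. RNF13, a relative of RNF130, stood just short of 2-fold at 0.995 (0.85 to 1.14; 659 and 913 counts). RNF5 (ENSG00000204308) lies on chromosome 6 from 32178354 to 32180793 and RNF130 (ENSG00000113269) on chromosome 5 from 179911651 to 180072118.

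The bases just before the RefSeq start of genes at both ends are shown so that the promoters of lower and higher genes can be set side by side. They are the 3 lowest and 3 highest tested genes with 100 or more counts that have an entry in the RefSeq promoter table (GRCh38.p14), with RNF139 left out. Each line gives the 120 bases before the start, 5′ to 3′ in gene direction, with capitals for a GC box (GGGCGG) or a CCAAT box (CCAAT) on either strand.
RNF25: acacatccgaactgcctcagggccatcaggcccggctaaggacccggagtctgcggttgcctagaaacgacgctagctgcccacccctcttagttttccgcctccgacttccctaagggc
RNF4: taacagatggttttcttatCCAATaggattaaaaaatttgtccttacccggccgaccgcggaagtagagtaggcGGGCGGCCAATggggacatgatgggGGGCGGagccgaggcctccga
RNF220: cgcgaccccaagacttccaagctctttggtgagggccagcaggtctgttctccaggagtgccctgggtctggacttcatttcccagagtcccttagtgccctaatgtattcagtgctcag
RNF130: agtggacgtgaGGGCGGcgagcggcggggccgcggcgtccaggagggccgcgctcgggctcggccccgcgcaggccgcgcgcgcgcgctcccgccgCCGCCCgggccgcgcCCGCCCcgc
RNF32: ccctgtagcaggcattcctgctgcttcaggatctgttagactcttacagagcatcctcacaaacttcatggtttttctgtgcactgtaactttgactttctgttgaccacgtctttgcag
RNF5: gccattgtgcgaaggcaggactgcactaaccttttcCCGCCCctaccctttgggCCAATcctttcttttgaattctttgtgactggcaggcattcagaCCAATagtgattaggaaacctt
They lie at chr2:218672003-218672122 (minus strand), chr4:2468986-2469105, chr1:44405040-44405159, chr5:180071760-180071879 (minus strand), chr7:156643681-156643800 and chr6:32178285-32178404, the unmarked ones on the plus strand. The RefSeq start differs from the outermost GENCODE 29 start that the gene positions above use. It lies 6886 bases inside that span for RNF4, 3520 for RNF32, 409 for RNF25, 359 for RNF130 and 51 for RNF5, and 34 bases outside it for RNF220, and which start these cells use was not measured. RNF4 carries 2 GC boxes and 2 CCAAT boxes in this stretch and RNF5 carries 1 and 2, although one was lower and the other higher. RNF130 has 3 GC boxes in 89.2% G and C, and RNF25, RNF220 and RNF32 have none of the motifs. Over the longer window from 250 bases before to 50 after the start, 52 tested RNF genes had an entry and 8 did not. A GC box was found in 73.1% of the 52, in 10 of 15 lower genes, in 26 of 33 that were neither and in 2 of 4 higher genes, beside 45.0% of all 35116 windows in the table. The CCAAT box was found in 8 of 15, 11 of 33 and 2 of 4, beside 34.6% of all windows. The TATA box (TATAAA) was found in 0 of 15, 5 of 33 and 0 of 4, beside 11.5%, the ETS core CCGGAA in 4, 10 and 0, beside 17.2%, and the cyclic AMP element TGACGTCA in 1, 1 and 0, beside 1.85%. Unlike the 52, the windows of the whole table were not limited to tested genes or to 1 window per gene. Median G and C content was 63.7% for the 52 and 58.7% for all windows. The 2 sets are therefore unlike, and a difference in motif share is not read as a trait of RNF genes. A match describes letters in the window and is not a measured binding site.

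Among the signalling regulators 5 of 6 tested genes were lower and 0 higher, and the median log2 ratio of the group was −1.77. The count of 5 was the same with total counts and on the mitochondrial reference. Both of these lower every ratio, so no lower call could be lost. Among all tested genes 21.3% were lower, 34.2% with total counts and 80.3% on the mitochondrial reference. Wnt signalling is held down by ligases that remove receptors and raised by one that removes axin. RNF146, which ubiquitinates axin once tankyrase has modified it, had 388 counts in DMSO and 62 in THZ1 (−2.11, −2.53 to −1.73). RNF220, described in Wnt and Hedgehog signalling, had 597 and 95 counts (−2.12, −2.45 to −1.81). RNF43, the ligase that clears Frizzled receptors, had 0 and 3 counts, at or under the floor of 3 counts, and this depth cannot show a change. Of its exonic bases 73.9% overlap other annotated genes. RNF111, also named Arkadia, removes the TGF-beta inhibitors SKI, SKIL and SMAD7, and had 1314 and 287 counts (−1.67, −1.86 to −1.48). RNF34, a ligase of caspases and p53, had 1167 and 222 counts (−1.87, −2.08 to −1.66). RNF41, the ERBB3 ligase NRDP1, lay near the 2-fold line with 594 and 193 counts (−1.09, −1.34 to −0.86). RNF11, a partner of the NF-kappaB inhibitor A20, went the other way within 2-fold, with 2825 and 3458 counts (0.82, 0.74 to 0.89; −0.87 on the mitochondrial reference). Per kb of exon RNF11 was the most abundant RNF gene in DMSO, at 41.0 CPM per kb (counts scaled by effective library size and by exon length), ahead of RNF145 at 31.9.

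In the chromatin and DNA damage group 3 of 8 tested genes were lower and 0 were higher, with a median of −0.87. The lower count was 6 with total counts and 8 on the mitochondrial reference. Of all tested genes 21.3% were lower and 9.70% higher. The share lower was 34.2% with total counts and 80.3% on the mitochondrial reference. Double-strand breaks are marked in sequence: RNF8 is recruited first, RNF168 then ubiquitinates the histone next to the break, and RNF169 binds that mark. Along this order RNF8 had 514 and 207 counts (−0.78, −1.03 to −0.55), RNF168 had 1009 and 204 (−1.78, −2.01 to −1.56) and RNF169 had 639 and 138 (−1.68, −1.96 to −1.42). The ratio of RNF8 was above that of RNF168 by 0.99 on the log2 scale (0.67 to 1.32), while RNF168 and RNF169 differed by −0.10 (−0.45 to 0.26). Of the exonic bases of RNF169, 27.9% overlap XRRA1 on the opposite strand. The catalytic subunit of Polycomb repressive complex 1, RNF2, was level with TMM, at 881 and 601 counts (−0.03, −0.18 to 0.12). Its ratio was −0.54 with total counts and −1.72 on the mitochondrial reference. RNF113A, a spliceosome component, had 354 and 127 counts (−0.95, −1.26 to −0.66), and 25.2% of its exonic bases overlap NDUFA1.

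RING-between-RING ligases showed 3 lower genes of 6 tested, 0 higher and a median of −1.01, and all 6 had ratios below 0. Total counts made 5 of them lower and the mitochondrial reference all 6. Beside these, 21.3% of all tested genes were lower, 34.2% with total counts and 80.3% on the mitochondrial reference. Next to RNF19B, RNF217 had 891 and 218 counts (−1.50, −1.73 to −1.29). RNF19A, the paralog of RNF19B, had 567 and 193 counts (−1.03, −1.27 to −0.79) and was within 2-fold with DESeq2 size factors. RNF14, a partner of the androgen receptor that also acts at stalled ribosomes, was close to level with 1690 and 1079 counts (−0.12, −0.23 to −0.01). Its ratio was −0.64 with total counts and −1.81 on the mitochondrial reference. RNF216 had 719 and 327 counts (−0.61, −0.80 to −0.42). Its transcribed pseudogene RNF216P1 had 255 and 31 counts (−2.49), and reads of this pair can be split between the copies, so both values are uncertain. RNF31 (HOIP), which builds linear ubiquitin chains, had 26 and 10 counts and was not tested, and 39.1% of its exonic bases overlap other genes. RNF144A had 0 counts in both libraries.

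Among 6 tested innate immunity genes 2 were lower and 0 were higher, with a median of −0.68. With total counts 4 were lower, and on the mitochondrial reference 6. The shares of all tested genes called lower were 21.3%, 34.2% and 80.3% in the same order. RNF166 had 191 counts in DMSO and 37 in THZ1 (−1.83, −2.39 to −1.33). RNF135 (Riplet), which activates the RNA sensor RIG-I, had 124 and 35 counts (−1.29, −1.88 to −0.75). RNF125, which marks the same sensor for degradation, had 91 and 67 counts (0.09, −0.39 to 0.55). The last gene is near the detection minimum and its interval spans both directions. RNF114 and RNF138, which share a zinc finger layout with RNF125 and RNF166, had 1626 and 729 counts (−0.63) and 2140 and 893 counts (−0.74). RNF213, a giant ATPase-coupled ligase linked to moyamoya disease, had the most raw counts of the family, 4944 and 3797. It was level with TMM (0.14, 0.08 to 0.21) but stood at −0.37 with total counts and −1.55 on the mitochondrial reference.

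Membrane and ER ligases split in both directions, with 6 lower, 2 higher and 9 neither of 17 tested, and a median of −0.13. Total counts gave 7 lower and 0 higher, and the mitochondrial reference 13 and 0. Of all tested genes 21.3% were lower and 9.70% higher. Total counts made these shares 34.2% and 2.95%, and the mitochondrial reference 80.3% and 0.706%. The lower genes were RNF139, RNF185 (584 and 121 counts), RNF26 (487 and 104), RNF103 (354 and 85), RNF121 (448 and 121) and RNF145 (3244 and 1106). RNF185 works in ER quality control beside RNF5, RNF26 holds endosomes near the nucleus from the ER, and RNF145 is a ligase of HMG-CoA reductase, the rate-limiting enzyme of cholesterol synthesis. Their log2 ratios ran from −2.53 for RNF139 to −1.03 for RNF145, whose call was lost with DESeq2 size factors. For RNF103, 24.7% of exonic bases overlap other genes, among them the read-through gene RNF103-CHMP3. Goliath-type membrane ligases were among those not lower: RNF13 and RNF130 stood at 0.995 and 1.04, RNF149 at 0.18 (832 and 657 counts), RNF167, a lysosomal ligase, at 0.07 (1157 and 844) and RNF150 at −0.23 (286 and 169). RNF180 had 104 and 127 counts (0.81, 0.43 to 1.20).

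The cytosolic group stayed mostly within 2-fold, with 1 lower gene (RNF25), 1 higher gene (RNF181) and 9 neither of 11 tested, and a median of 0.12. Total counts gave 3 lower and 0 higher, and the mitochondrial reference 9 and 0. Of all tested genes 21.3% were lower and 9.70% higher. Total counts made these shares 34.2% and 2.95%, and the mitochondrial reference 80.3% and 0.706%. RNF7 (RBX2), the RING subunit of cullin 5 ligases, had 801 counts in DMSO and 1007 in THZ1 (0.86, 0.72 to 0.99; 0.34 with total counts and −0.83 on the mitochondrial reference). RNF10, which ubiquitinates the small ribosomal subunit, had 2181 and 1616 counts (0.09, and −0.42 with total counts). RNF126, which handles mislocalized proteins with BAG6, had 405 and 143 counts (−0.97, −1.26 to −0.70). It lay just short of 2-fold and was called lower with the upper quartile, where RNF181 was not called. Genes with no role assigned here gave 0 lower and 1 higher (RNF32) of 6 tested. Total counts gave 1 lower and 0 higher, and the mitochondrial reference 4 and 0. RNF141 stood at 0.75 (947 and 1108 counts), RNF207 at 0.56 (159 and 163) and RNF214 at −0.78 (608 and 245). On the mitochondrial reference these 3 ratios were −0.94, −1.13 and −2.47.

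**Figure D2:**
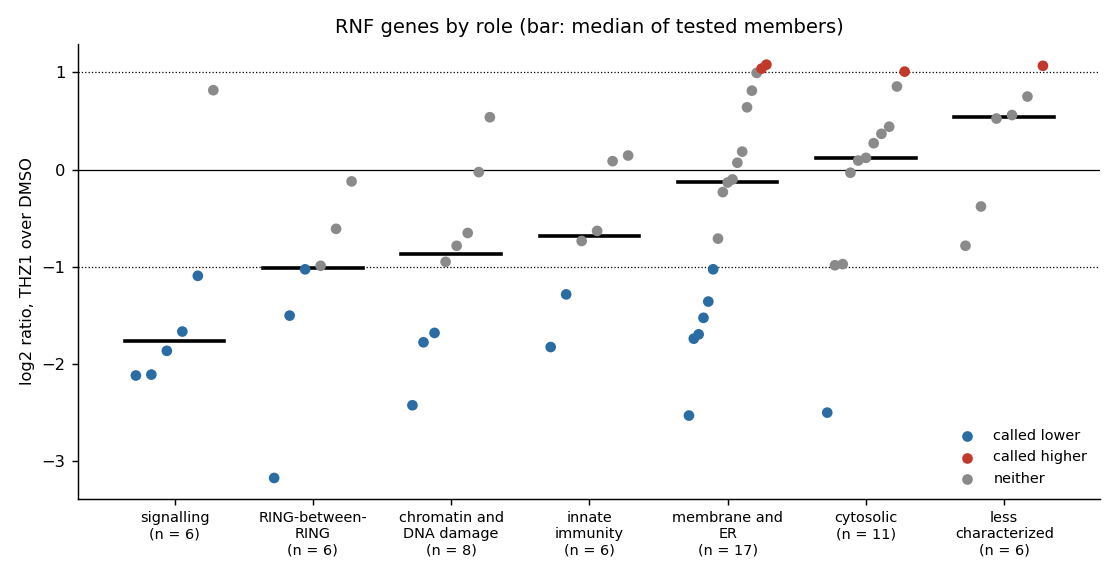
Log2 ratio of THZ1 over DMSO (y axis) for the tested RNF genes in 7 role groups (x axis), with 1 point per gene coloured by its call, a black bar for the group median and dotted lines at 2-fold. Signalling genes have the lowest median at −1.77 with RNF11 apart at 0.82, and membrane and ER genes spread from −2.53 to 1.08.

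Some RNF genes that work together or descend from a common gene were set side by side as pairs. A difference between the log2 ratios of 2 genes does not depend on how the libraries are scaled. The interval given is the exact conditional 95% interval of the odds ratio of their counts and covers counting error only. RNF5 stood 2.82 above RNF185 (2.46 to 3.19). Per kb, RNF5 went from 11.5 normalized CPM in DMSO to 24.3 in THZ1 and RNF185 from 7.68 to 2.29. RNF20 and RNF40 form the heterodimer that ubiquitinates histone H2B on transcribed genes. RNF20 had 1592 and 1607 counts (0.54, 0.44 to 0.64), with 0.02 under total counts and −1.15 on the mitochondrial reference. RNF40 had 1089 and 481 (−0.65, −0.81 to −0.50). RNF20 stood 1.19 above RNF40 (1.01 to 1.38). For RNF40, 47.2% of exonic bases overlap genes on the opposite strand.

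The paralogs RNF115 and RNF126 differed by 1.41 (1.10 to 1.74), with RNF115 at 848 and 800 counts (0.44, and −0.07 with total counts). RNF19A stood 2.15 above RNF19B (1.62 to 2.73), and per kb RNF19B was the higher of the pair in DMSO (8.69 against 4.26) and the lower in THZ1 (0.95 against 2.09). RNF14 stood 2.38 above its partner at stalled ribosomes, RNF25 (2.01 to 2.79). Sterol-linked RNF139 stood 1.51 below RNF145 (−1.82 to −1.21). By contrast, the difference of RNF13 from RNF130 was −0.04 (−0.25 to 0.16) and that of RNF114 from RNF138 was 0.10 (−0.07 to 0.28). These pairs were chosen for known kinship or joint function after the values had been seen.

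**Figure D3:**
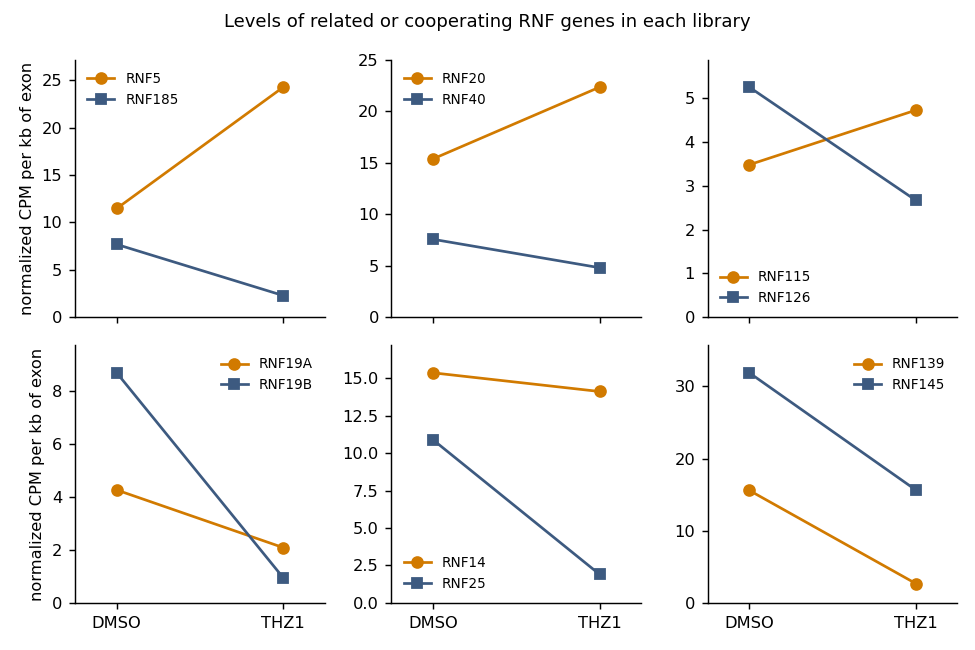
Level of 6 pairs of RNF genes in the DMSO and THZ1 libraries (x axis) as normalized CPM per kb of exon (y axis, from 0, with its own scale in each panel), with 1 point per gene and library. RNF5 goes from 11.5 to 24.3 and RNF185 from 7.68 to 2.29, and the lines of RNF19A and RNF19B cross.

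The 24 members below the minimum had few or no counts. Both libraries had 0 counts for 8 of them (RNF112, RNF128, RNF133, RNF144A, RNF148, RNF165, RNF175 and RNF186), and 10 more had 3 or fewer in each, including the meiotic crossover gene RNF212, the germ-cell gene RNF17 and RNF43. A count of 0 allows up to 0.136 normalized CPM in DMSO and 0.196 in THZ1, where the floor is 3 counts per library. The other 6 were RNF31, RNF152 (24 and 5 counts), RNF122 (20 and 0), RNF208 (7 and 1), RNF212B (4 and 0) and RNF224 (0 and 6). With the floor in place of the 0, RNF122 was at least 4.63-fold lower and RNF224 at least 2.88-fold higher. These bounds leave out the counting error of the other library. The 95% counting intervals hold log2 ratios of −1.78 or below for RNF122 and 0.76 or above for RNF224. None of the 24 enters the counts above.

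Genes that act with the RNF ligases were read from lists chosen for these pathways. Of all tested genes 21.3% were lower and 9.70% higher, or 34.2% and 2.95% with total counts. Of 34 tested E2 enzymes 4 were lower and 0 higher (11.8% and 0%), with a median of 0.28. UBE2N, which builds chains for RNF8, stood at 0.46 (1821 and 1736 counts), and UBE2A and UBE2B, which serve RNF20 and RNF40, at 0.70 and 0.52, each of them negative when scaled to mitochondrial mRNAs, and UBE2N also when scaled to library totals. The 4 lower genes were UBE2O, a hybrid E2 and E3 enzyme, with 873 and 79 counts (−2.93), UBE2G1 with 2458 and 476 (−1.84), UBE2J2 with 444 and 95 (−1.69) and CDC34 with 314 and 92 (−1.24). Of 11 tested ubiquitin genes and E1 enzymes 1 was higher, RPS27A at 1.65, a ubiquitin fusion with many pseudogene copies and so uncertain. HECT ligases, the other large E3 class, gave 3 lower (AREL1 at −1.36, SMURF2 at −1.16 and SMURF1 at −1.03) and 0 higher of 27, with a median of 0.03, and 5 were lower with total counts. RING-between-RING ligases outside the RNF symbols gave 0 lower and 0 higher of 5, with ANKIB1 at 0.42 and ARIH2 at 0.36, both below 0 with total counts or on the mitochondrial reference.

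Partners of single members are read beside the 21.3% of all tested genes called lower and the 9.70% called higher. With total counts these shares were 34.2% and 2.95%. Polycomb complex 1 genes gave 7 lower and 0 higher of 19 (median −0.23). The chromodomain gene CBX2 had 220 and 16 counts (−3.22) and the corepressor gene BCOR had 692 and 86 (−2.48), while RING1, the paralog of RNF2, stood at −0.12 and BMI1, a core partner of either, at −0.03. Histone H2B ubiquitination partners gave 4 lower and 0 higher of 12, led by LEO1 (−1.89) and WAC (−1.81), a protein that recruits RNF20 and RNF40 to RNA polymerase II. Partners at DNA breaks gave 2 lower (L3MBTL2 at −2.18 and BARD1 at −1.16) and 1 higher of 19, with a median of 0.07. Under library totals 6 members passed as lower and 0 as higher, and with the upper quartile 0 were higher. Of the 6 TGF-beta genes around RNF111, 4 were lower, namely SKI (877 and 144 counts, −2.08), SKIL (4783 and 962, −1.79), SMAD4 (−1.62) and SMAD7 (−1.35). Both the ligase and its 3 substrates were lower. Wnt receptor turnover genes gave 2 lower of 5, AXIN1 (378 and 22 counts, −3.55) and ZNRF3 (548 and 44, −3.10), the relative of RNF43. The tankyrase genes TNKS and TNKS2, upstream of RNF146, were within 2-fold (0.15 and −0.04). Linear ubiquitin chain partners gave 2 lower of 9, SPATA2 (−1.50) and OTULIN (−1.20), and 5 with total counts. ER quality control partners gave 3 lower of 20, led by INSIG1 (−2.74) and HERPUD1 (−1.84), and 7 with total counts. UBE2A, UBE2B, UBE2N, HERC2 and RBCK1 stand on more than 1 of these lists.

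Gene structure and starting level were also compared between RNF genes that were lower and those that were neither. The median gene span was 33057 bases for the 20 lower genes and 40237 for the 36 that were neither, and the median transcript GC content was 47.9% and 45.3%. Median DMSO counts were 589 and 689. The 4 higher genes had a median span of 19645 bases and a median GC content of 52.4%. Among all tested protein-coding genes, those lower and those neither had median spans of 26475 and 38725 bases. Their median GC content was 50.3% and 47.2%, and their median DMSO counts were 441 and 738. Across the 60 tested genes, Pearson's r of the log2 ratio with log10 gene span was −0.07, with log10 transcript length 0.01, with GC content −0.13 and with log10 DMSO level −0.12, and Spearman's rho was −0.04, 0.03, −0.14 and −0.09. These are descriptions across genes of the same 2 libraries, and the DMSO level also enters the ratio. The tested genes lay on 20 chromosomes, with 7 each on chromosomes 1 and 6, of which 2 were lower on each.

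As a gauge, other ubiquitin ligase families were picked by the same kind of symbol rule and read with TMM scaling. Of 37 tested TRIM genes 15 were lower and 0 higher (40.5% and 0%), with a median of −0.73. Of 22 tested KLHL genes, which encode cullin 3 adaptors, 13 were lower and 2 higher, with a median of −1.17. With 1 library per group the difference between families was not tested.

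**Figure D4:**
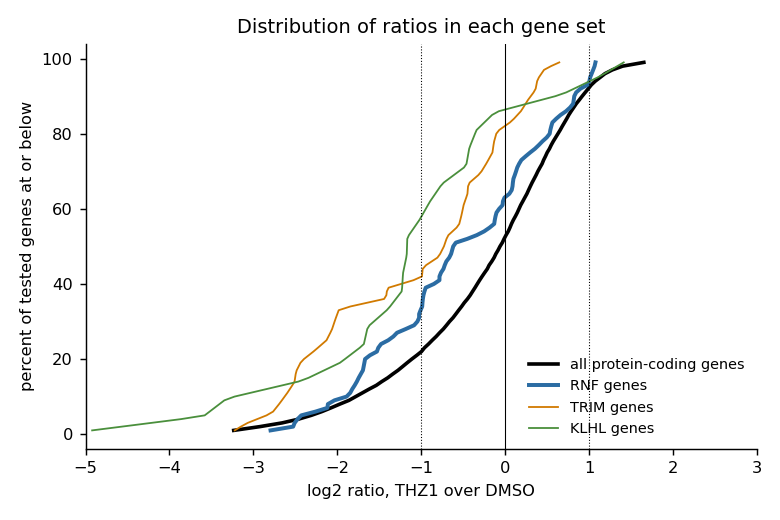
Percent of tested genes (y axis) at or below each log2 ratio of THZ1 over DMSO (x axis) for protein-coding genes, RNF, TRIM and KLHL genes, with dotted lines at 2-fold. The RNF line crosses 50% at −0.62 and the line for protein-coding genes at −0.06, while TRIM and KLHL genes cross at −0.73 and −1.17.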

How the data were processed

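The authors deposited raw read counts per gene, whole numbers without normalization, for 1 DMSO and 1 THZ1 library made with a poly(A) mRNA kit. Reads were trimmed and aligned to GRCh38 and counted with tools that the submitters' processing notes list as Trimmomatic 0.38, HISAT2 2.1.0 and featureCounts 1.6.0. The gene annotation used for counting and its strand option are not given in these sources, so reads of overlapping, antisense or copied genes cannot be told apart. In 38 of 60 tested RNF genes some exonic bases overlap another gene.

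Of 58884 gene IDs, 58472 had a symbol in the symbol table and 58611 were in GENCODE 29, which gave types, positions and exon lengths. Library sizes were scaled with TMM (edgeR 4.0.16, R 4.3.3) on the 12457 genes that reached 30 counts in either library. Log2 ratios used normalized counts with 0.5 added. Intervals are exact Clopper-Pearson 95% intervals of the THZ1 share of both counts. They cover counting error only, since PCR copies of a molecule are counted as separate reads and variation between cultures is not measured. The code for the call was tested on simulated data. Levels per kb use the union of exons. Figures were drawn with matplotlib 3.10.9 in Python 3.11.15.

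The family, the role groups and the pathway lists were chosen with earlier results of these data known. Named genes are the 8 lowest and 8 highest tested members with 100 or more counts in a library, up to 4 per role group furthest from 0, up to 2 per pathway list and a set of well-known ligases. Some genes that enter the counts are not reported by name here. Others, such as the partners in pairs, were named after their values were seen. The alternatives scaled to mitochondrial mRNAs, to total counts, to the upper quartile or with size factors of DESeq2 1.42.0. Others were TMM on protein-coding genes, count minimums of 1 and 100, a stricter interval rule, 5 counts added, members without exonic overlap and annotation symbols. TMM without a count minimum was added after seeing the data.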

Additional observations from a re-analysis of the deposited data

How the results depend on the processing

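The count of lower RNF genes was 20, with 18 to 24 under DESeq2 size factors, the upper quartile, TMM on protein-coding genes, TMM without a count minimum, count minimums of 1 and 100, 5 counts added and annotation symbols. With a minimum of 1 count 76 members entered and their median was −0.18. It was 16 when the whole interval had to pass 2-fold. With total counts it was 31 with 0 higher and a median of −1.14, and with mitochondrial mRNAs it was 51 with 0 higher and a median of −2.31. All 20 lower genes stayed lower under both of these, since both shift every ratio down. Under those scalings 34.2% and 80.3% of all tested genes were lower. With DESeq2 size factors RNF19A and RNF145 were no longer called. The 4 higher genes became 0 under TMM without a count minimum, which was chosen after seeing the data, and 0 under the stricter interval. On the mitochondrial reference RNF5 stood at −0.61, RNF32 at −0.62, RNF130 at −0.65 and RNF181 at −0.68. Among the 22 tested members without exonic overlap, 6 were lower and 2 higher, with a median of −0.50. Their share lower lay between the 33.3% of all tested RNF genes and the 22.0% of tested protein-coding genes. The protein-coding genes were not limited to those without overlap. Annotation symbols add OBI1 under its older symbol, giving 21 lower. The depth limits the 24 members below 30 counts. No paired analysis was possible because each group has 1 library.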
